A study of Mus musculus with 12 samples.

Results

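Clathrin chains and the subunits of the AP2 adaptor were followed here in single mouse embryos labelled wild type or null for the transcriptional repressors Tgif1 and Tgif2. The set holds 8 genes of the 23284 in the count table, 3 clathrin chains (Clta, Cltb and Cltc) and 5 AP2 subunits (Ap2a1, Ap2a2, Ap2b1, Ap2m1 and Ap2s1), matched by gene symbol. The family was chosen on the measured values of 1 member, since Cltb was far higher in every embryo labelled null, so values of Cltb in that contrast are given as a description with no test. The other 7 members were taken because they belong to the same coat. They and the gene lists used below were chosen with earlier results of these data known. All 8 passed the filter on low counts. RNA-seq of polyadenylated RNA was done on 12 single whole embryos of a mixed C57BL/6 and 129Sv background, 9.0 days after fertilization, at roughly 9 to 10 somites. Of these, 4 were wild type and 8 were conditional double mutants described as null for Tgif1 and Tgif2, titled CDKO and called CDKO-labelled below. The sources used here name neither the Cre driver nor the deleted exons nor the litters.

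Libraries held 16802367 to 21346245 counts. Levels are given as CPM, counts of a gene relative to its library's total after TMM normalization. Tgif1 stood at 60.9 ± 2.52 CPM (SD, n = 4) in wild type and at 6.2 ± 0.528 CPM (SD, n = 8) in the CDKO-labelled embryos, with no overlap, and 101 to 144 counts per library remained there. Tgif2 stood at 87.3 ± 1.17 and 97.9 ± 11.8 CPM and did not pass the test (adjusted p = 0.0958, edgeR), and its level thus did not follow the label. Groups were compared with edgeR's quasi-likelihood test, and adjusted p is by Benjamini-Hochberg over 14412 genes with a threshold of 0.05. That test called 51.5% of all genes, 26.6% higher and 24.9% lower in the CDKO-labelled embryos, so a call on its own sets no gene apart.

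Clathrin-mediated endocytosis takes receptors and their ligands from the cell surface into vesicles. AP2 gathers cargo at the membrane and recruits clathrin, whose heavy chain forms the cage and whose light chains, encoded by Clta and Cltb, sit on the heavy chain and adjust its assembly and its contacts with actin. AP2 is built from an alpha chain (Ap2a1 or Ap2a2), a beta chain (Ap2b1), a medium chain (Ap2m1) and a small chain (Ap2s1). In embryos the route governs how long signalling receptors stay at the surface, and yolk sac endoderm and early neurons use it heavily.

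Promoter sequences of 4 members are shown because these members were higher in the CDKO-labelled embryos and hold a motif marked below. Each is the 250 bases before a RefSeq start (GRCm38.p6), printed 5′ to 3′ on the gene's strand. Capitals mark TGTCA or its reverse complement TGACA, the core letters of sites bound by Tgif proteins, and TGACGTCA, the cAMP response element bound by CREB and ATF factors, a motif picked after the sequences were seen. The windows are chr13:54611374-54611623 on the minus strand for Cltb, chr16:20535230-20535479 on the plus strand for Ap2m1, chr7:44929491-44929740 on the minus strand for Ap2a1 and chr11:83302447-83302696 on the plus strand for Ap2b1.
Cltb: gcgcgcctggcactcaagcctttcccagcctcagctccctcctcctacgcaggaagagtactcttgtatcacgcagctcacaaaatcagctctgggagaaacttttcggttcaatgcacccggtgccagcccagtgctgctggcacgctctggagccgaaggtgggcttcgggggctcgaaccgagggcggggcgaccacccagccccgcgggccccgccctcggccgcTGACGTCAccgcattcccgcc
Ap2m1: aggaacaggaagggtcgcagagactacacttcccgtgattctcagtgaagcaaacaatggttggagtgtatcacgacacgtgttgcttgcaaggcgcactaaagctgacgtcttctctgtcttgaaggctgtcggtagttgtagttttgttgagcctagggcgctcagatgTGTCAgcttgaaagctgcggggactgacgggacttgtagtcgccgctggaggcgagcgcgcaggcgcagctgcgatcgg
Ap2a1: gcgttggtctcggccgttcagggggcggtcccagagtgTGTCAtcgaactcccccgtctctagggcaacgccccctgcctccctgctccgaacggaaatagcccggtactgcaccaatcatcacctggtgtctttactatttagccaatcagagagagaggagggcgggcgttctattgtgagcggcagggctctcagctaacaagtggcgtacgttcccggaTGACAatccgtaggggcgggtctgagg
Ap2b1: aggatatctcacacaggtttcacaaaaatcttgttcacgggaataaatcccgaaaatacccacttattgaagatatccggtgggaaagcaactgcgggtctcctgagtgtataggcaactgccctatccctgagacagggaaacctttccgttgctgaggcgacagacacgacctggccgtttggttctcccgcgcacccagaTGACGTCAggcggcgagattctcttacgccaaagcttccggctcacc

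The Cltb window held no TGTCA on either strand and a TGACGTCA that begins 21 bases before the start. Ap2b1 held a TGACGTCA that begins 47 bases before its start. Across 32851 promoter windows of the same length, 1.55% held TGACGTCA. Because this motif was picked after the members' sequences were seen, its presence in them cannot be weighed against that share. TGTCA on either strand was found in Ap2m1, 79 bases before the start, in Ap2a1, which held 2 matches, and in 1 of 2 Clta windows, against 13124 of the 32851 windows. The longer form CTGTCAA was in none of the 9 windows of the 8 members and in 2.95% of all windows. A match is a description of the letters in this window and not of binding.

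Cltb encodes light chain b. Wild-type embryos 1 to 4 held 5.68, 6.53, 7.6 and 6.98 CPM. The 8 CDKO-labelled embryos held 43.4 CPM at the lowest, 45.4 at the median and 50.3 at the highest. Every CDKO-labelled embryo was therefore far above every wild-type embryo, while within each group the values lay close together. The fitted log2 fold change was 2.78 (SE 0.08), a 6.89-fold difference. Raw counts ran from 98 to 140 per wild-type library and from 751 to 1057 per CDKO-labelled library. By log2 fold change Cltb ranked 23 among all 14412 genes tested, and 4 among the 13240 genes whose wild-type mean reached 1 CPM. No other transcript in GENCODE M21 was a near-identical copy of it, and no other gene there shared its exons.

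Clta, which encodes light chain a, did not pass the test. Wild-type embryos held 229, 229, 220 and 222 CPM, and the CDKO-labelled embryos ran from 225 through a median of 241 to 284 CPM. The groups overlapped, with 6 of 8 CDKO-labelled embryos above every wild-type embryo. The log2 fold change was 0.12 (SE 0.06, adjusted p = 0.095, edgeR), and it was -0.05 when trends on transcript length and GC content were removed. Cltc, the heavy chain, stood at 572, 607, 619 and 631 CPM in wild type and at 576, 620 and 777 CPM at the lowest, median and highest of the CDKO-labelled embryos. Its groups overlapped too, with the highest value in CDKO-labelled embryo 1, and the log2 fold change came to 0.08 (SE 0.07, adjusted p = 0.338, edgeR). It was 0.16 with trends on length and GC removed (adjusted p = 0.0939, edgeR) and 0.04 without CDKO-labelled embryo 1.

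The light chain mix therefore differed between the groups, a description that rests on Cltb and carries no test. Per kilobase of the median coding transcript, Cltb made up 1.7% to 2.35% of light chain level in wild type (2.04% ± 0.279, SD, n = 4) and 10.7% to 12.9% in the CDKO-labelled embryos (11.7% ± 0.736, SD, n = 8). Clta thus supplied most light chain RNA in both groups. With the union of annotated exons as length the means were 1.09% and 6.56%. Both light chains together, per kilobase, stood at 2.16 ± 0.124 times the heavy chain in wild type and 2.48 ± 0.284 times in the CDKO-labelled embryos, with overlapping ranges. Counts are per gene, so the neuronal splice forms of the light chains cannot be told apart from the others.

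**Figure D1:**
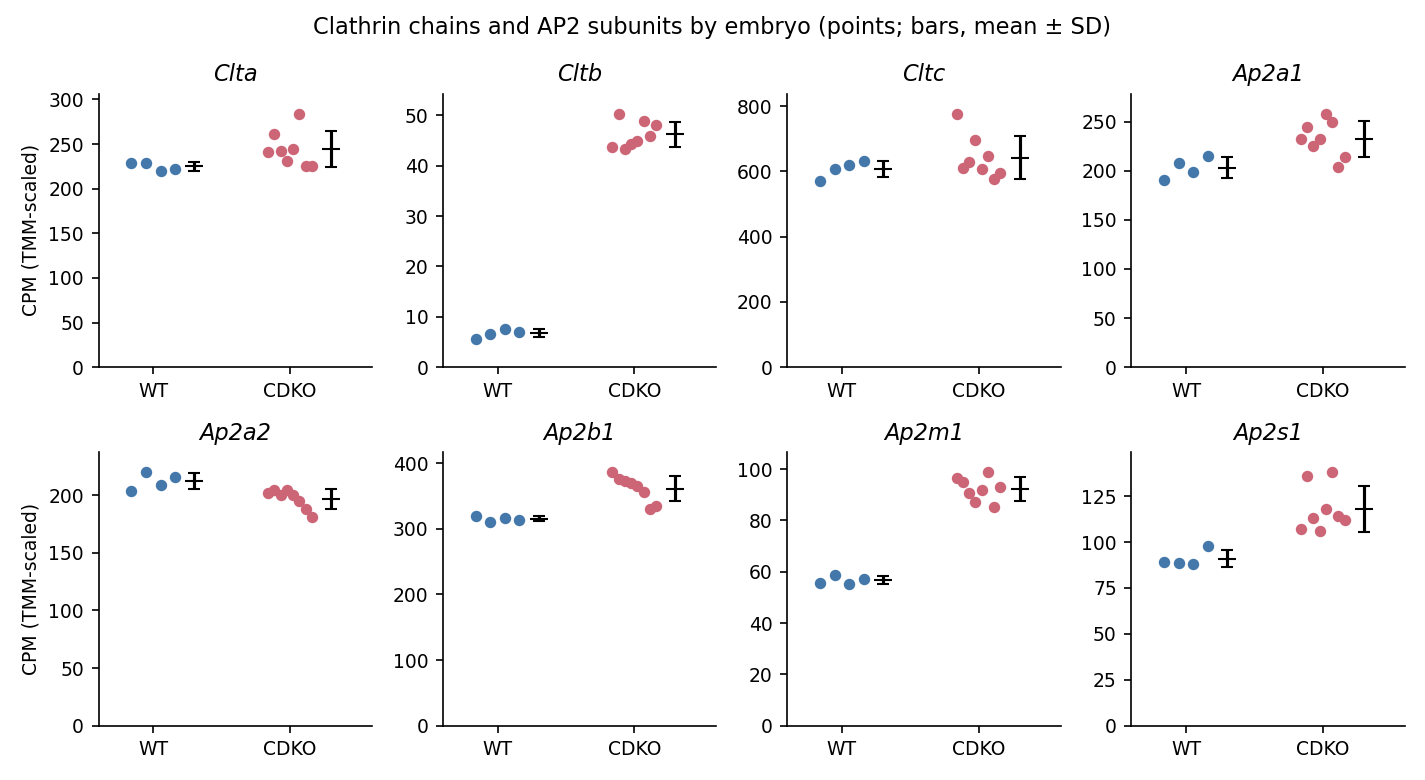
CPM of the 8 genes in each embryo (points, y axes from 0) with the mean and SD of each group. Cltb, Ap2b1, Ap2m1 and Ap2s1 show no overlap between the 4 wild-type and 8 CDKO embryos, and Cltb shows the widest gap.

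Among the 7 members other than Cltb, 4 rose, 1 fell and 2 showed no call, and all 5 that were called were AP2 subunits. That is 71.4% of the 7 called, beside 51.5% of all genes, and their median log2 fold change was 0.19 beside 0.01 over all genes. In 3 of the 7 every CDKO-labelled embryo lay above every wild-type embryo, a pattern found in 17.5% of all genes. No member showed the opposite separation, which 17.1% of all genes showed. With trends on length and GC removed, or with wild-type embryo 1 and CDKO-labelled embryo 2 both left out, 3 rose and 1 fell.

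Ap2m1, the medium chain that reads tyrosine-based sorting signals on cargo, changed most. Wild-type embryos held 55.8, 58.7, 55.3 and 57.2 CPM, and the CDKO-labelled embryos ran from 85.3 through 92.4 to 98.8 CPM. The gap between the groups exceeded the spread within either. The log2 fold change was 0.7 (SE 0.05, adjusted p = 2.48e-08, edgeR), a 1.63-fold rise in 8 of 8 embryos. Of all genes tested, 13.8% had a larger change in either direction. Ap2m1 has 3 near-identical copies among GENCODE M21 transcripts, the longest match 1308 bases at 99.694% identity. None of these copies has a row in the count table, and how multiply mapped reads were counted is not stated, so its count is uncertain.

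Ap2s1, the small chain, helps to read dileucine sorting signals. It stood at 89.4, 88.8, 88 and 97.6 CPM in wild type and at 106, 114 and 138 CPM at the lowest, median and highest of the CDKO-labelled embryos. The groups did not overlap, although wild-type embryo 4 was high for its group. The log2 fold change was 0.37 (SE 0.07, adjusted p = 0.000506, edgeR), and 0.19 with trends on length and GC removed (adjusted p = 0.00121, edgeR). Ap2b1, the beta chain that binds clathrin, held 320, 311, 317 and 314 CPM in wild type and 330, 368 and 386 CPM at the lowest, median and highest of the CDKO-labelled embryos. All 8 lay above wild type, by a small margin in embryos 7 and 8. The log2 fold change was 0.2 (SE 0.05, adjusted p = 0.00226, edgeR).

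The 2 alpha chains, which anchor AP2 to membrane phosphoinositides and bind accessory proteins, moved apart. Ap2a1 stood at 191, 208, 199 and 215 CPM in wild type and ran from 204 through 232 to 258 CPM in the CDKO-labelled embryos. The groups overlapped in CDKO-labelled embryos 7 and 8, and the log2 fold change was 0.19 (SE 0.06, adjusted p = 0.0144, edgeR). Leaving out wild-type embryo 1 ended that call (adjusted p = 0.0614, edgeR), as did leaving out both it and CDKO-labelled embryo 2 (0.0784), and removing trends on length and GC, where the log2 fold change was 0.03 (0.614). Ap2a1 shares 720 of 4300 exon bases with Fuz on the opposite strand, and the strand setting is not given. Fuz, a ciliogenesis gene, rose from 7.64 ± 0.141 to 12 ± 1.41 CPM, and its part in the Ap2a1 count was not tested.

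Ap2a2 held 204, 220, 209 and 216 CPM in wild type and 181, 200 and 205 CPM at the lowest, median and highest of the CDKO-labelled embryos. It was below every wild-type embryo in 6 of 8, and the log2 fold change came to -0.11 (SE 0.04, adjusted p = 0.0471, edgeR). This call sits at the threshold and held in 9 of 19 alternative fits, with adjusted p between 0.000204 and 0.142. Of single embryos, leaving out wild-type embryo 2, 3 or 4, or CDKO-labelled embryo 3, 5, 6, 7 or 8, ended it. The ratio of both alpha chains within an embryo, which needs no scaling between libraries, separated the groups fully. The log2 ratio of Ap2a1 to Ap2a2 was -0.06 ± 0.04 (SD, n = 4) in wild type and 0.24 ± 0.09 (SD, n = 8) in the CDKO-labelled embryos, a difference of 0.3 (exact permutation test, two-sided, p = 0.00404, the smallest that 4 against 8 embryos allow, and 0.00606 adjusted over 3 pairs). With each embryo left out in turn the difference was 0.28 to 0.32. The share of other gene pairs that separate as fully was not computed. As single genes, 17.5% of all genes separated with every CDKO-labelled embryo higher and 17.1% with every one lower. The ratio was not recomputed with trends on length and GC removed or without the exon bases shared with Fuz.

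Of the other pairs tested, Clta to Cltc did not pass. Its log2 ratio was -1.43 ± 0.09 in wild type and -1.39 ± 0.17 in the CDKO-labelled embryos, a difference of 0.04 (exact permutation p = 0.655, adjusted 0.655). Ap2b1 to Ap1b1 compares the beta chains of AP2 and of AP1, the adaptor of the trans-Golgi network and endosomes, and fell from 1.14 ± 0.1 to 0.93 ± 0.07. The difference was -0.21 (exact permutation p = 0.00404, adjusted 0.00606), with 8 of 8 CDKO-labelled embryos below wild type. Here too the share of other gene pairs that separate as fully was not computed. Ap1b1 thus rose more than Ap2b1, from 143 to 190 CPM (0.41 on the log2 scale, SE 0.06). Cltb to Clta, given without a test, went from -5.07 ± 0.2 to -2.4 ± 0.1.

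**Figure D2:**
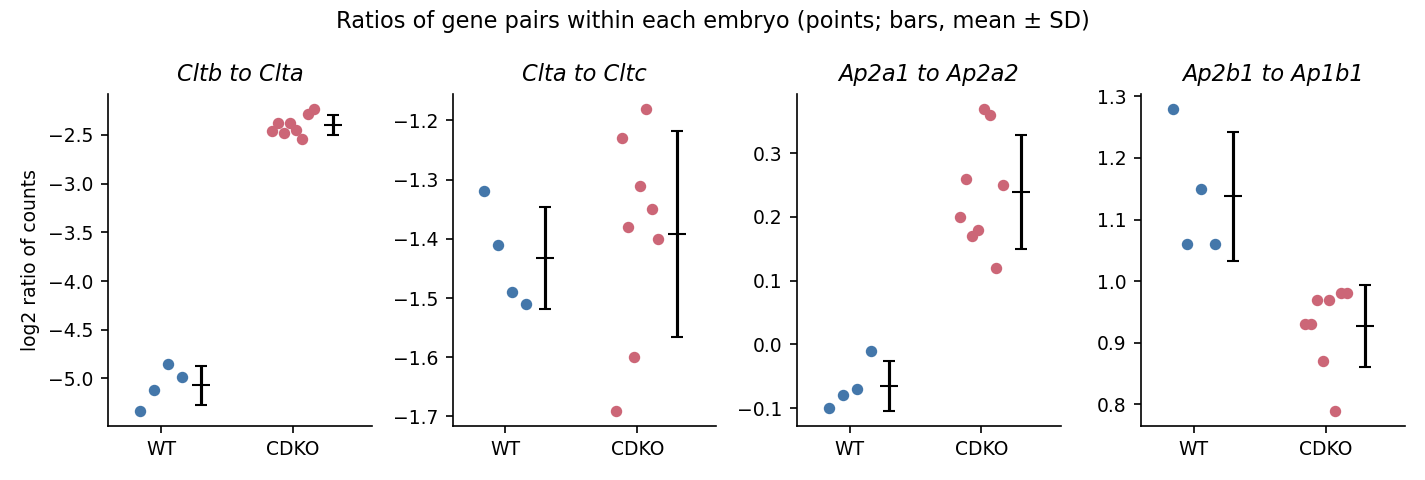
Log2 ratio of raw counts of 2 genes within each embryo (points), with the mean and SD of each group; each panel has its own axis. Ap2a1 to Ap2a2 is higher, and Ap2b1 to Ap1b1 lower, in all 8 CDKO embryos, while Clta to Cltc overlaps.

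Per kilobase of the median coding transcript, members ranked in wild type as Clta (202 ± 4.21 CPM per kb), Ap2s1 (151 ± 7.42), Cltc (95.8 ± 4), Ap2b1 (91.8 ± 1.14), Ap2a1 (59.6 ± 3.01), Ap2a2 (45.6 ± 1.47), Ap2m1 (22.6 ± 0.621) and Cltb (4.2 ± 0.507). Of neighbours in that order only Cltc and Ap2b1 lay within their SDs. In the CDKO-labelled embryos Cltb remained the lowest, at 29 ± 1.61 CPM per kb, below Ap2m1 at 36.8 ± 1.82. There the spreads of Clta (220 ± 18) and Ap2s1 (195 ± 20.1) met, as did those of Ap2b1 (105 ± 5.68) and Cltc (101 ± 10.3). The order depends on the length used. With the longest coding transcript Ap2b1 stood at 56 CPM per kb in wild type, below Ap2a1 at 58.9, and with the union of exons Ap2b1 (36) was also below Ap2a2 (37.4), and Ap2s1 (61.8) below Cltc (71.5).

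Relative spread between embryos was wider in the CDKO-labelled group for the 7 members other than Cltb, with a coefficient of variation of 1.24% to 5.05% in wild type and 4.37% to 10.3% in the other group. The same held outside the family for Tgif1 (4.14% and 8.52%), Tgif2 (1.34% and 12.1%) and Fuz (1.85% and 11.8%). How many of all genes had a wider spread in that group is not given, so it is not a trait of this family. Cltb went the other way, from 12.1% to 5.56%. Its wild-type values rest on 98 to 140 counts per library, where counting noise is relatively larger than at 751 to 1057 counts in the other group. The part of that noise in the fall was not tested. Within the 8 CDKO-labelled embryos Cltb had no relation to another member that passed adjustment over 7 relations. The highest was with Ap2s1 (Pearson r = 0.8, exact permutation p = 0.0175, adjusted 0.123; Spearman rho = 0.67, exact permutation p = 0.0831, adjusted 0.582). It rests on embryos 2 and 6, which had the highest levels of both genes, and r was 0.26 without them. For the other 6 members r lay between -0.46 (Cltc) and 0.49 (Clta), with adjusted p of 0.493 to 0.679 by exact permutation. Embryos 2 and 6 weigh on these too. Without them, over 6 embryos, r was -0.71 for Clta, -0.6 for Cltc, -0.45 for Ap2a1, -0.92 for Ap2a2, -0.85 for Ap2b1 and -0.08 for Ap2m1, so that 3 of the 6 changed sign. These values are a description with no test.

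Genes most like Cltb across embryos were ranked by the correlation of log2 CPM over 12 embryos after each group's mean was subtracted, among 11122 genes. The leading genes were Rpl23a (r = 0.9), Acpl2 (0.89), Gne (0.88), Mapre3 (0.85) and Gdpd5 (0.83). With wild-type embryo 1 and CDKO-labelled embryo 2 left out, 0 of these 5 stayed among the 5 highest. Of the members, Ap2s1 ranked highest (r = 0.48, rank 564).

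Genes beside Cltb moved in both directions. In the GRCm38.p6 gene table the 4 nearest tested genes on one side were 4833439L19Rik, Arl10, Nop16 and Higd2a, and on the other Faf2, Rnf44, Cdhr2 and Gprin1. Of these 8, 1 rose, 4 fell and 3 did not pass, beside 51.5% of all genes called. Higd2a, next to Cltb, rose from 40.9 ± 2.09 to 49.1 ± 2.08 CPM (0.26 on the log2 scale, SE 0.05, adjusted p = 0.0006, edgeR). Faf2, next to it on the other side, fell by 0.13 on the log2 scale (SE 0.04). Gprin1 had the largest fall of the 8, from 18.1 to 11.7 CPM (-0.63, SE 0.12).

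**Figure D3:**
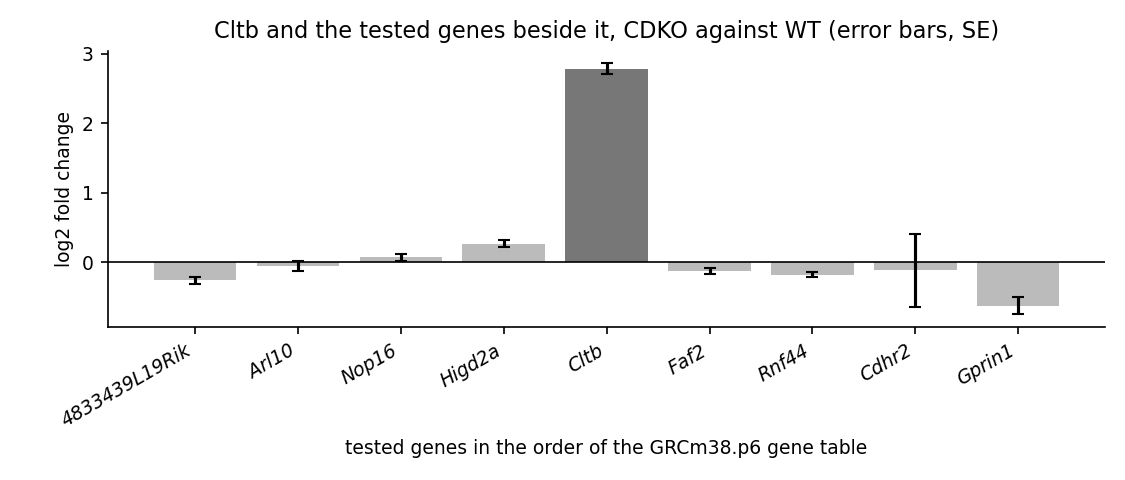
Log2 fold change of Cltb and of the 4 nearest tested genes on each side, in table order, with SE from the fit. Cltb stands at 2.78, and its neighbours lie between -0.63 and 0.26.

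Other genes of the clathrin route moved in both directions, with more rises than falls. Of 69 tested, in 5 lists by role, 32 rose, 11 fell and 26 did not pass (62.3% called, beside 51.5% of all genes), with a median log2 fold change of 0.15 beside 0.01 over all genes. With trends on length and GC removed the split was 27 higher and 20 lower and the median 0.07. With wild-type embryo 1 and CDKO-labelled embryo 2 left out it was 29 and 10.

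Genes that assemble and open AP2 or start the coat numbered 12, of which 6 rose, 2 fell and 4 did not pass (66.7% called, beside 51.5% of all genes). With trends on length and GC removed the split was 5 higher and 4 lower. Aagab, an assembly chaperone for adaptor alpha and gamma chains, fell from 80.7 ± 4.36 to 57.3 ± 2.66 CPM (-0.49 on the log2 scale, SE 0.05, adjusted p = 1.15e-06, edgeR), in 8 of 8 embryos. Sgip1, an AP2-binding relative of the FCHO proteins, rose from 1.99 ± 0.0388 to 4.86 ± 0.769 CPM. Necap2, an AP2-associated protein (0.5, SE 0.07, and 0.33 with trends on length and GC removed), and Itsn2, an intersectin scaffold (0.56, SE 0.09), rose too.

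Cargo adaptors had 16 tested members, of which 9 rose, 4 fell and 3 did not pass (81.2% called, beside 51.5%), or 7 higher and 5 lower with trends on length and GC removed. Snap91, the AP180 clathrin assembly protein known from synapses, rose from 1.57 ± 0.447 to 4.91 ± 0.639 CPM (1.64 on the log2 scale, SE 0.18, adjusted p = 2.72e-06, edgeR). Its widely expressed relative Picalm stood at 195 ± 6.44 and 195 ± 14.2 CPM and did not pass. The epsin gene Epn3 (0.84, SE 0.1) and the endocytic adaptor gene Numbl (0.62, SE 0.1) rose, whereas Tnk2, a kinase that binds clathrin, fell from 81.6 to 58.9 CPM (-0.47, SE 0.06).

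Membrane bending and scission genes numbered 16, with 7 higher, 2 lower and 7 that did not pass (56.2% called, beside 51.5%). The split was 6 higher and 5 lower with trends on length and GC removed. Dnm2, the widely expressed dynamin that cuts vesicles off the membrane, rose from 96.1 ± 4.08 to 115 ± 6.83 CPM (0.26 on the log2 scale, SE 0.05, adjusted p = 0.000529, edgeR), and by 0.12 with trends on length and GC removed (adjusted p = 0.0384, edgeR). Dnm3 rose more, from a low level, 1.02 ± 0.126 to 3.37 ± 0.441 CPM (1.72, SE 0.16). Sh3gl3, an endophilin also at a low level (0.974 ± 0.299 and 2.44 ± 0.833 CPM), rose by 1.33 (SE 0.28). Pacsin3, a syndapin, rose by 0.46 (SE 0.1, and 0.28 with trends on length and GC removed). Both were higher in 8 of 8 embryos. Of 12 uncoating and phosphoinositide genes 5 rose, 1 fell and 6 did not pass, or 6 of 12 called beside 51.5% of all genes, with 4 higher and 3 lower once trends on length and GC were removed. Inpp5b rose (0.4, SE 0.07) and its relative Ocrl fell (-0.23, SE 0.06), both phosphatases that act on the lipid AP2 binds, while Inpp4a (0.35, SE 0.08) and the lipid kinase gene Pip5k1b (0.48, SE 0.13) rose. Hspa8, the chaperone that strips clathrin from vesicles, did not pass, at 630 ± 231 and 779 ± 144 CPM.

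Receptors taken up through clathrin coats numbered 13, with 5 higher, 2 lower and 6 that did not pass (53.8% called, beside 51.5%). Their list median of 0.09 became -0.04 with trends on length and GC removed. Insr, the insulin receptor, rose from 30.1 ± 0.564 to 60.3 ± 6.39 CPM (1 on the log2 scale, SE 0.08, adjusted p = 1.26e-07, edgeR). Egfr, the EGF receptor (1.05, SE 0.13, from 3.87 to 7.99 CPM), and Vldlr, a lipoprotein and reelin receptor (1.3, SE 0.19), rose too. Tfrc, the transferrin receptor that brings in iron, fell from 209 ± 20.1 to 135 ± 19.3 CPM (-0.63, SE 0.1, adjusted p = 0.000152, edgeR). Tfrc is also 1 of 10 primitive red cell markers, whose summed level was 1051 to 1560 CPM in wild type and 180 to 1850 CPM, with a median of 515, in the CDKO-labelled embryos. Of these 10 markers 0 rose, 1 fell and 9 did not pass (10% called, beside 51.5% of all genes), and the 1 that fell was Tfrc itself. The median log2 fold change of the 10, Tfrc included, was -1.02, and their part in the fall of Tfrc was not tested.

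Adaptors other than AP2 were called in 15 of 30 genes, beside 51.5% of all genes. Of the 30, for AP1, AP3, AP4, AP5, GGA and their trans-Golgi partners, 11 rose, 4 fell and 15 did not pass, and with wild-type embryo 1 and CDKO-labelled embryo 2 left out 7 rose and 3 fell. Ap4b1, the beta chain of AP4, rose from 18.6 ± 0.809 to 33.9 ± 1.71 CPM (0.86 on the log2 scale, SE 0.06, adjusted p = 2.65e-08, edgeR). Synrg, an AP1 partner, rose by 1.07 (SE 0.09). The AP1 small and gamma chain genes Ap1s1 (0.35, SE 0.04, and 0.18 with trends on length and GC removed) and Ap1g2 (0.58, SE 0.08) rose as well. For the medium chains, Ap1m1 stood at a log2 fold change of 0.19 beside 0.7 for Ap2m1, and for the small chains Ap1s1 stood at 0.35 beside 0.37 for Ap2s1; these differences were not tested. Of 14 genes for uptake without clathrin 8 rose, 1 fell and 5 did not pass (64.3% called, beside 51.5%). Among those that rose were Cav1, which forms caveolae (1.38, SE 0.19), its partners Ptrf (0.79, SE 0.09) and Sdpr (1.04, SE 0.19), and the flotillin gene Flot1 (0.61, SE 0.08). Levels were low for Cav1 (2.6 CPM in wild type and 6.74 in the CDKO-labelled embryos) and Sdpr (5.36 and 11 CPM).

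**Figure D4:**
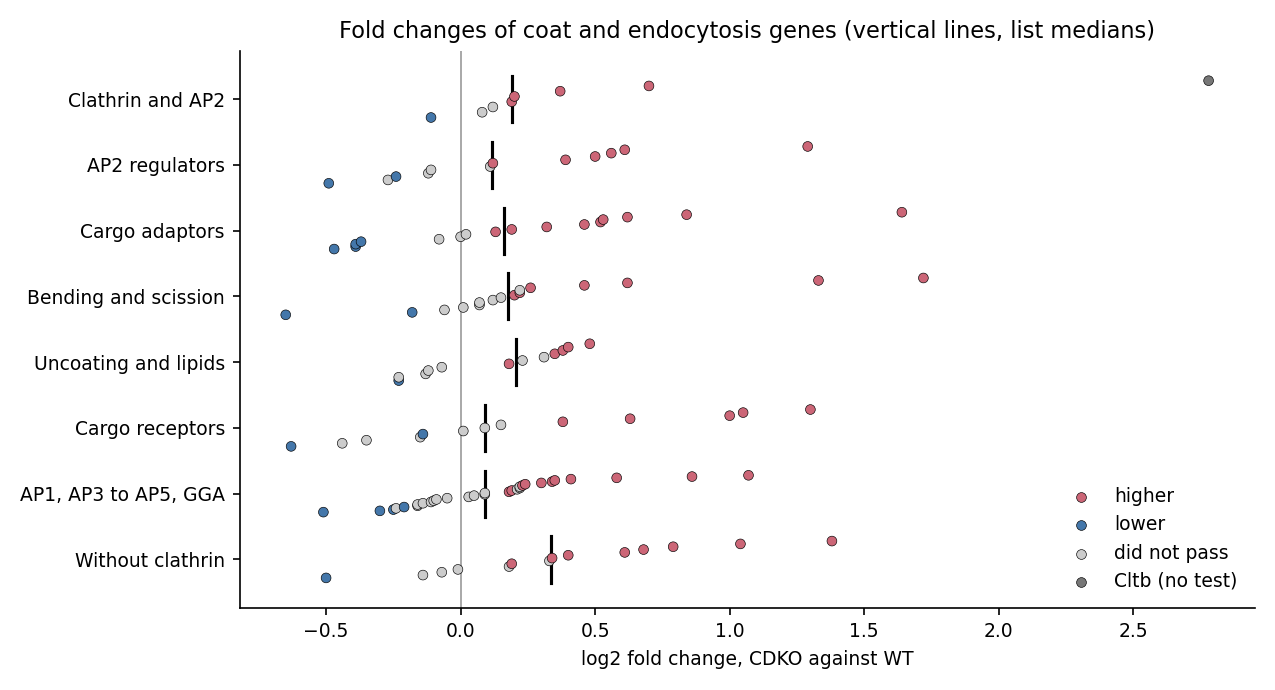
Log2 fold change of each tested gene (points) by list, coloured by call, with the list median as a vertical line; the top line leaves out Cltb. Cltb at 2.78 lies beyond the points of the other lists, whose medians run from 0.09 to 0.33.

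Whole embryos mix cell types, and in such samples a change in the number of cells cannot be told apart from a change in RNA per cell. Of 12 cardiomyocyte markers 10 rose (83.3% called, beside 51.5% of all genes). Their summed level was 1559 to 1978 CPM in wild type and 2399 to 4315 CPM in the CDKO-labelled embryos. Of 10 endothelial markers 7 rose (70% called, beside 51.5%), with sums of 397 to 471 and 519 to 721 CPM. Of 10 markers listed for trophoblast and parietal endoderm 4 had counts too low to test (Prl3d1, Prl2c2, Tpbpa and Gcm1). Of the 6 tested 4 rose (66.7% called, beside 51.5%), with sums over all 10 of 616 to 707 and 880 to 1213 CPM. Sparc (group means 265 and 494 CPM) and Lamb1 (291 and 355 CPM) had the highest levels of the 6. Early neuron markers had 1 higher and 2 lower of 7 tested (42.9% called, beside 51.5%). With wild-type embryo 1 and CDKO-labelled embryo 2 left out 1 was higher and 0 lower. The neuron marker sums over all embryos, 83.4 to 108 and 64.2 to 86.2 CPM, overlapped. Their median log2 fold change was -0.44. Yolk sac endoderm markers had 0 of 10 called and summed to 612 to 2233 and 723 to 3371 CPM. Surface ectoderm markers had 2 higher and 1 lower of 10 (30% called, beside 51.5%), with sums of 762 to 875 and 713 to 1337 CPM. No listed marker was at 0 in every embryo. Their part in the changes of clathrin and AP2 genes was not tested.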

How the data were processed

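Raw counts by gene symbol for 12 embryos are what the authors deposited. Build mm9 and the tools STAR, featureCounts, FastQC and DESeq2 are named in the submitters' processing notes. No source used here gives their versions, the annotation, the strand setting or how multiply mapped reads were counted. Groups came from the genotype label. The members and gene lists were chosen with earlier results of these data known.

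Counts were tested across all genes with edgeR 4.0.16 in R 4.3.3 (TMM, filterByExpr by group, robust quasi-likelihood F test, no covariate, 14412 genes). Standard errors are the size of the log2 fold change over the square root of F. Ratios used counts plus 0.5 and correlations log2 of CPM plus 0.5, with exact permutation tests in scipy 1.17.1. P-values measure the spread between single embryos, which may share litters. The lowest chi-square per degree of freedom between libraries of a group was 3.89, above sampling noise for every pair.

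Named genes are the 8 members, the 4 lowest p per list, the neighbours of Cltb, the 5 genes most like it, Tgif1 and Tgif2, and Ap1b1 as part of a listed ratio. Fuz, Ap1m1, Picalm, Hspa8, Sparc and Lamb1 were added after their values were seen. Markers too low to test are named without values. Older symbols were matched through the GRCm38.p6 RefSeq table, so Ptrf is Cavin1 and Sdpr is Cavin2. Lengths, overlaps and copies (at least 200 bases at 95% identity, BLAST 2.17.0) come from GENCODE M21. Alternatives were limma-voom 3.58.1, DESeq2 1.42.0, scaling by RLE or upper quartile, no count filter, a pseudocount of 5, CPM without TMM, embryos left out, trends on length and GC removed (99.1% of tested genes had both), and a threshold of 0.01. Other length definitions were added after seeing the data.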

Additional observations from a re-analysis of the deposited data

Results flagged for a closer look

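In 9 of 126 groups of embryos (7.14%) a single embryo lay far from the rest of its group, by a limit that chance passes in about 1 in 20; the groups share embryos and are not independent. Among the members, wild-type embryo 4 held Ap2s1 at 97.6 CPM, with the other wild-type embryos at 88 to 89.4 CPM. Fuz stood at 7.43 CPM in wild-type embryo 3 (7.7 to 7.73 in the others). Tnk2 stood at 88.1 CPM in wild-type embryo 2 (78.9 to 79.8), Insr at 31 CPM in wild-type embryo 3 (29.8 to 29.9), and 4833439L19Rik at 121 CPM in wild-type embryo 4 (117 to 118). Pacsin3 stood at 9.97 CPM in CDKO-labelled embryo 4 (12.3 to 13.7) and Ptrf at 50.8 CPM in CDKO-labelled embryo 7 (37.5 to 42.6). The summed neuron markers of wild-type embryo 1 were 108 CPM (83.4 to 85.6 in the others), and the summed cardiomyocyte markers of CDKO-labelled embryo 2 were 4315 CPM (2399 to 3196).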

How the results depend on the processing

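Of 425 values recomputed under an alternative, 403 were labelled the same by the limits set for them, 15 weaker and 7 moved. Values labelled the same could still change. Among them, the log2 fold change of Clta went from 0.12 to -0.05 with trends on length and GC removed. At a threshold of 0.01 the genes called went from 7423 to 5488, and adaptors other than AP2 from 15 to 10. At a threshold of 0.01, 3 of the 7 members other than Cltb were called in place of 5. Leaving out wild-type embryo 1 and CDKO-labelled embryo 2 kept 0 of the 5 genes most like Cltb. With the union of exons as length, the Cltb share of light chains was 1.09% in wild type and 6.56% in the CDKO-labelled embryos, and with the longest coding transcript 12.9% in the latter. Over 19 alternative fits Cltb stayed between 2.63 and 2.84 on the log2 scale, and Ap2b1, Ap2m1 and Ap2s1 were called in all 19. With each embryo left out in turn, 4 to 5 members were called, and 6485 to 7524 genes. With trends on length and GC removed, 42.1% of all calls were higher in place of 51.7%. No paired analysis was possible because the labels give the embryos no replicate numbers, litters or pairs. Cltb in wild type rests on 98 to 140 counts per library, which limits its fold change more than depth limits that of any other member.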
